A study of Mus musculus with 4 samples.

Results

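The Gimap genes encode GTPases of immunity-associated proteins, a family of small GTP-binding proteins found mainly in lymphocytes. Their RNA was followed here in N-myc-driven B-cell leukaemia of mice, from donor cells labelled Anp32b+/+ or Anp32b-/-. The members were the rows of the deposited count files whose symbol was Gimap1, Gimap3, Gimap4, Gimap5, Gimap6, Gimap7, Gimap8 or Gimap9. All 8 were found among the 16613 symbols, all 8 passed the filter on low counts, and 0 further symbols began with Gimap.

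The 4 libraries came from GFP+ bone marrow cells of recipient mice. The recipients had been given B220+ bone marrow cells carrying an N-myc transgene introduced by transduction, so both groups share N-myc and the transplantation. The strain is C57BL/6, and the label of the cells is N-myc-induced B-ALL, short for acute lymphoblastic leukaemia of B-cell origin. The donor cells were Anp32b+/+ (wild type, 2 libraries) or Anp32b-/- (knockout, 2 libraries). Anp32b encodes a nuclear acidic protein of a family that includes histone-binding members. The labels give neither the age of the mice nor whether the libraries of a genotype came from separate animals. The p-values therefore rest on the spread among these samples alone, and that spread could be technical.

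GIMAP proteins carry a GTP-binding domain of the AIG1 type, and several are anchored in membranes of the endoplasmic reticulum, Golgi, lysosome or mitochondria. They are best known for keeping T and B lymphocytes alive: loss of Gimap5 in rats or mice causes a lack of peripheral T cells, and Gimap1 is needed by mature T and B cells. The genes sit side by side on 1 chromosome in mammals.

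Library totals ran from 19581575 to 19758671 estimated reads, and 3 reads, the limit that a count of 0 allows, equalled 0.152 to 0.153 CPM (read counts scaled to library size) on these totals. The family drew 5782 to 6133.4 reads per library. Anp32b itself was at 774 and 853 CPM in wild type and at 74.4 and 70.6 CPM in knockout. It was lower, as labelled, but not absent, with 1449 and 1367 reads left in the knockout libraries. The source of these reads was not tested. Libraries of 1 genotype differed by more than sampling noise, with a chi-square per degree of freedom of 5.56 for the wild-type pair and 2.14 for the knockout pair. Other groups of genes also moved with the genotype. The summed CPM of 10 neutrophil markers was 543 and 559 in wild type and 105 and 105 in knockout, and that of 4 Y-linked genes was 156 and 173 against 42.5 and 41.7. These values apply to every result on the Gimap genes given here. Their part in those results was not tested.

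In GRCm38, the build that the submitters' processing notes name, the cluster lies on chromosome 6 from 48647186 to 48770851, a span of 124 kb (RefSeq annotation, counted from 1). In chromosome order the genes are Gimap8, Gimap9, Gimap4, Gimap6, Gimap7, Gimap1, Gimap5 and Gimap3. Gimap6 and Gimap3 are read from the minus strand and the other 6 from the plus strand. The shortest gap between adjacent members is the 2401 bases between Gimap1 and Gimap5, and the longest is the 15245 bases between Gimap8 and Gimap9.

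The sequences printed next are the 250 bases before the RefSeq start of the 4 genes that differed between the genotypes, the first 3 lower and the last higher in knockout, so that their promoters can be compared. They are given 5′ to 3′ on the strand of the gene, from RefSeq on GRCm38.p6. The Gimap8 window is chr6:48646984-48647185 (plus strand, the first of its pair of listed starts), cut to 202 bases because an outer RefSeq transcript begins there. That of Gimap6 is chr6:48708245-48708494 (minus strand), that of Gimap7 is chr6:48718371-48718620 (plus strand) and that of Gimap4 is chr6:48684328-48684577 (plus strand). The bases checked shortly after the Gimap4 start occur in no Gimap4 transcript of GENCODE, another annotation, unlike those of the other windows. The Gimap4 start was thus not matched between the annotations. Capitals mark GGAAGT, the core that ETS factors such as PU.1 recognise, and TGTGGT, a core of RUNX factors, each searched on both strands, so that ACCACA is TGTGGT read on the other strand.
Gimap8: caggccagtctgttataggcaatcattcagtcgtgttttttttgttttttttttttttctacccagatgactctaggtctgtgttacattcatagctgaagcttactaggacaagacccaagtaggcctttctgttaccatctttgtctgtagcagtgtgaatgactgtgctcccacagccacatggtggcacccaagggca
Gimap6: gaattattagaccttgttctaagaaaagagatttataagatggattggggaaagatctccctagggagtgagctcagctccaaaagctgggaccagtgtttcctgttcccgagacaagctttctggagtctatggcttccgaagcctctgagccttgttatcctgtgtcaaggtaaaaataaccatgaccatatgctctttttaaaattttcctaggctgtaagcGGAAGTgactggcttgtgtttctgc
Gimap7: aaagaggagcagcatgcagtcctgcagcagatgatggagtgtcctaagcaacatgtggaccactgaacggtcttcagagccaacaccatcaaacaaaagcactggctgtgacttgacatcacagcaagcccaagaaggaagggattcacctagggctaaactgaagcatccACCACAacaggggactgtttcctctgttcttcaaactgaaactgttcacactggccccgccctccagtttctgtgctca
Gimap4: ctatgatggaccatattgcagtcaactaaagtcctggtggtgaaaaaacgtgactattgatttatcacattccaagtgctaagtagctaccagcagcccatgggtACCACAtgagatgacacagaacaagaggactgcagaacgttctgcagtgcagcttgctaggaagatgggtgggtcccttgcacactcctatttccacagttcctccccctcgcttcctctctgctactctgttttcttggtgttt

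The search used the full 250 bases of every window. Windows were found for 8 of 8 members, 9 in all because Gimap8 has a pair of them. GGAAGT occurred in 2 of the 9 windows, those of Gimap6 and Gimap5, and in 19.7% of 32851 RefSeq promoter windows of the same length. The Gimap6 match begins 25 bases before the start, and Gimap5 holds one match 44 and another 216 bases before it. TGTGGT occurred in 3 windows, those of Gimap1, Gimap4 and Gimap7, and in 14.0% of all windows.  The 3 genes that were lower in knockout have no match in common: Gimap6 holds GGAAGT, Gimap7 holds TGTGGT and Gimap8 holds neither. A match describes the letters in the window and does not show a bound site.

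Levels of different genes were compared as CPM per kb of transcript, with the median length of a gene's protein-coding GENCODE transcripts. In wild type Gimap4 was the most abundant member at 104 ± 0.975 CPM per kb (SD, n = 2), above 92.3% of 15760 genes with a length. Gimap1 followed at 51.6 ± 1.02, Gimap6 at 35.9 ± 0.400 and Gimap9 at 30.5 ± 0.723 CPM per kb (SD, n = 2 each). Gimap7 (10.2 ± 0.537), Gimap3 (9.48 ± 0.131) and Gimap5 (8.45 ± 0.988 CPM per kb) formed a middle group. Gimap8, whose protein carries several GTP-binding domains in a row, was the lowest at 1.63 ± 0.0492 CPM per kb. The wild-type libraries of neighbours in this order did not overlap. In knockout the order was Gimap4, Gimap1, Gimap9, Gimap6, Gimap3, Gimap5, Gimap7 and Gimap8, and only Gimap3 and Gimap5 overlapped between neighbours. Gimap6 went from the third to the fourth place and Gimap7 from the fifth to the seventh. The longest transcript as the length was an alternative chosen after seeing the data. With it, Gimap4 was at 51.7 ± 0.486 and Gimap1 at 50.8 ± 1.00 CPM per kb in wild type. Their wild-type libraries then overlapped (52.0 and 51.3 for Gimap4, 50.1 and 51.5 for Gimap1). The distance of Gimap4 from Gimap1, and its clear first place in wild type, thus depend on the length used. Gimap9 (22.6) then stood above Gimap6 (18.0 CPM per kb) in wild type too. Gimap6 then held the fourth and Gimap7 the seventh place in both genotypes, so both changes of place depend on the length used.

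**Figure D1:**
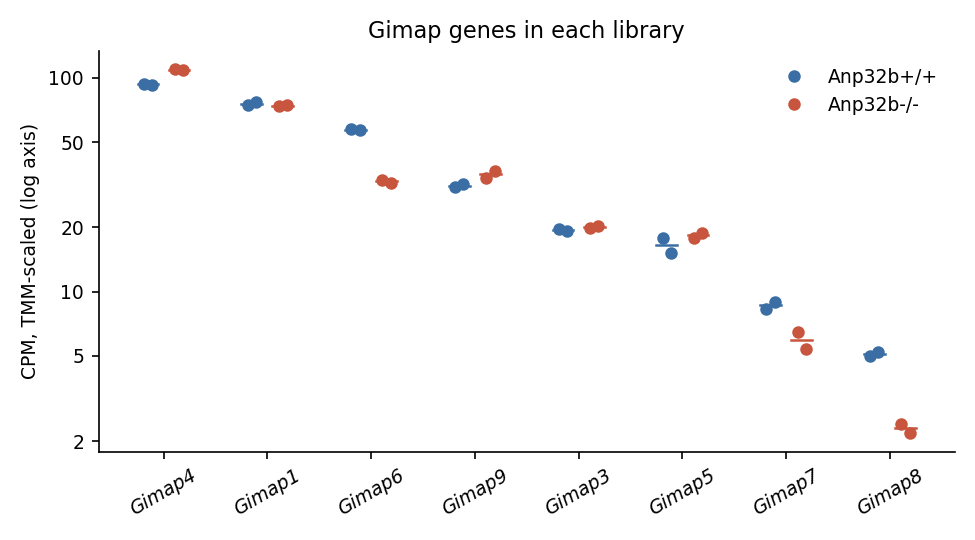
CPM (TMM-scaled, log axis) of each Gimap gene in each library, ordered by the wild-type mean. Points are libraries, 2 per genotype, and bars are means. Gimap6, Gimap7 and Gimap8 are lower in both Anp32b-/- libraries, and Gimap4 is higher in both.

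The knockout comparison asks which transcripts differ when the leukaemia arises from cells labelled Anp32b-/-. Of the 8 members, Gimap6, Gimap7 and Gimap8 fell and Gimap4 rose, and the other 4 did not pass the test (edgeR's quasi-likelihood test over all genes, Benjamini-Hochberg adjusted p under 0.05, the rule for a call). So 3 of 8 members were lower and 1 of 8 was higher, 4 in all. Over all 12123 genes tested, 12.6% were called lower and 10.9% higher, 23.6% in all. The members had a median log2 fold change of 0.00438, and all genes tested one of 0.00206. CPM did not overlap between the genotypes for 7 of 8 members, against 60.5% of the genes tested. In bulk RNA, fewer cells of a type and less RNA per cell cannot be told apart.

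Gimap6, whose product binds the autophagy protein GABARAPL2, showed the smallest p of the family. It was at 57.6 and 56.7 CPM in the wild-type libraries and at 33.3 and 32.4 CPM in the knockout libraries. Both knockout libraries lay well below both wild-type ones, and the libraries of a genotype were close together. The level fell 1.74-fold, from 57.2 ± 0.637 to 32.8 ± 0.627 CPM (SD, n = 2 each, log2 fold change -0.80, SE 0.06, 95% interval -0.94 to -0.66, edgeR adjusted p = 5.22e-07).

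Gimap8 showed the largest fold change of the 8. Its counts were 100 and 103.88 estimated reads in wild type and 47.01 and 42 in knockout, or 5.02 and 5.24 CPM against 2.41 and 2.17 CPM. The groups did not overlap, but these are the lowest counts of the family and the interval is the widest. It fell 2.24-fold (log2 fold change -1.16, SE 0.19, 95% interval -1.57 to -0.76, edgeR adjusted p = 0.000408). It was the 1 member lower by at least 2-fold, as 3.90% of the genes tested were.

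Gimap7 is a GTPase that can stimulate GTP hydrolysis by other family members. Its counts were 166 and 178 in wild type and 126 and 104 in knockout, or 8.33 and 8.98 CPM against 6.47 and 5.37 CPM. The groups did not overlap, and the knockout libraries lay further apart than the wild-type ones. It fell 1.46-fold (log2 fold change -0.55, SE 0.14, 95% interval -0.85 to -0.25, edgeR adjusted p = 0.0106). This call was the least firm of the 3: it was lost with DESeq2 (adjusted p = 0.198), with no filter on low counts (edgeR adjusted p = 0.0783) and without knockout replicate 2 (-0.42, edgeR adjusted p = 0.172).

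Gimap4, which has been linked to the pace of T cell death, was the 1 member that rose. It was at 93.9 and 92.6 CPM in wild type and at 110.0 and 108 CPM in knockout. The groups did not overlap, and the spread within a genotype was small beside the difference. The level went from 93.3 ± 0.877 to 109 ± 1.22 CPM (SD, n = 2 each), a 1.17-fold rise (log2 fold change 0.23, SE 0.05, 95% interval 0.11 to 0.34, edgeR adjusted p = 0.00621). The call was lost without knockout replicate 1 (0.22, edgeR adjusted p = 0.119) and without knockout replicate 2 (0.24, edgeR adjusted p = 0.127), where the value itself hardly moved. A fit that omits a knockout library has only the wild-type pair to estimate the spread. That pair is the more variable one across genes, though not for Gimap4 itself (SD 0.877 against 1.22 CPM). Its part in the lost calls was not tested.

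Gimap9, its neighbour in the cluster, was at 30.7 and 31.8 CPM in wild type and at 34.1 and 36.6 CPM in knockout. The knockout libraries were the higher ones, but the difference did not pass the test (log2 fold change 0.18, SE 0.07, 95% interval 0.02 to 0.33, edgeR adjusted p = 0.0959). Its interval, which is not adjusted for the number of genes, lies above 0.

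Gimap1, the member that mature lymphocytes need, was at 74.8 and 76.9 CPM in wild type and at 73.7 and 74.7 CPM in knockout. The values nearly touch. On the log2 scale the knockout differed by -0.03 (SE 0.06, edgeR adjusted p = 0.738), which did not pass the test, and the 95% interval ran from -0.15 to 0.09. GENCODE places an antisense gene, Gimap1os, over Gimap1. The strand setting of the counting is not given in the sources used here, so reads of the 2 could not be told apart.

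Gimap5, the lysosomal member whose loss causes lymphopenia, was at 17.9 and 15.1 CPM in wild type and at 17.8 and 18.9 CPM in knockout. The groups overlapped, with wild-type replicate 2 below the other 3 libraries (log2 fold change 0.15, SE 0.10, 95% interval -0.06 to 0.36, edgeR adjusted p = 0.306). Without wild-type replicate 1 the value was 0.28 (edgeR adjusted p = 0.0575), and without wild-type replicate 2 it was 0.03 (0.858), so its size depends on which wild-type library is used. Gimap3, its closest relative in the mouse, was at 19.7 and 19.3 CPM in wild type and at 19.8 and 20.3 CPM in knockout. The knockout libraries were the higher ones by a small margin that did not pass the test (0.04, SE 0.08, 95% interval -0.14 to 0.22, edgeR adjusted p = 0.775).

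Gimap3 and Gimap5 are also the pair whose reads can be confused. Of the 50-base stretches in the protein-coding transcripts of Gimap5, 9.98% also occur in Gimap3, and 7.52% of those of Gimap3 occur in Gimap5. No other pair of members shared such a stretch. The deposited counts of both genes were fractional in all 4 libraries, as were those of Gimap1. Those of Gimap6 and Gimap8 were fractional in 2 libraries, and those of Gimap4, Gimap7 and Gimap9 were whole numbers in all 4. The annotated gene Gm28053 holds 8.48% of the stretches of Gimap1, 5.51% of those of Gimap5, 2.37% of those of Gimap7 and 0.316% of those of Gimap3, and none of those of the other 4 members. At this length and among these genes, fractional counts therefore did not follow shared stretches in every member. Stretches shared with any other gene were not searched. With stretches of 100 bases, Gimap7 shared 0 with Gm28053, and 2.21% of those of Gimap5 occur in Gimap3. With the reads of Gimap3 and Gimap5 summed, the pair drew 748 and 683 reads in wild type and 732.99 and 757.97 in knockout (log2 fold change 0.09, SE 0.07, 95% interval -0.06 to 0.25, edgeR adjusted p = 0.398). The sum was not called, as neither gene was alone.

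**Figure D2:**
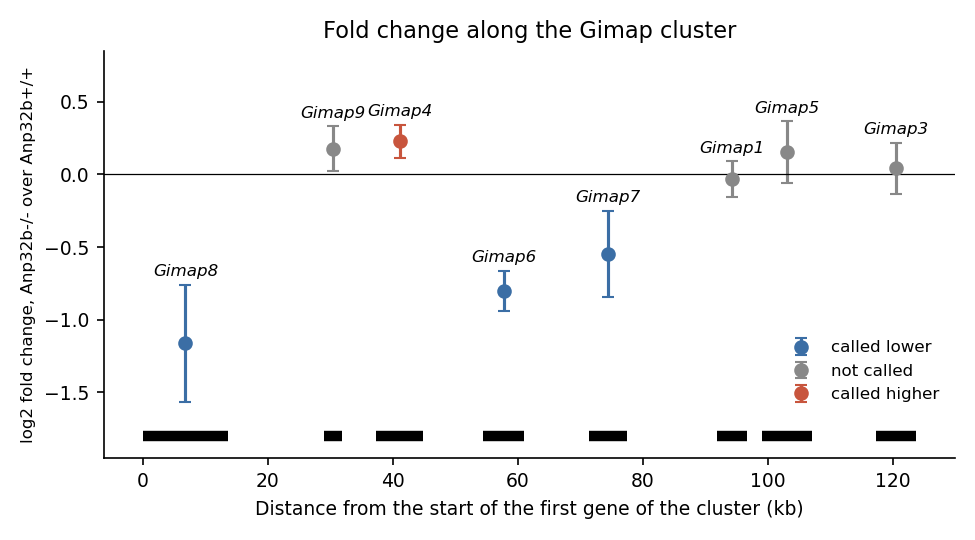
Log2 fold change of each Gimap gene (knockout over wild type, points, with 95% intervals) at its place in the cluster. The black blocks are the genes, and the horizontal axis is the distance in kb from the start of the first gene. The genes that fell are Gimap8 at one end and the adjacent pair Gimap6 and Gimap7 in the middle, with Gimap9 and Gimap4 above 0 between them.

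Along the chromosome, then, the members that fell were not one block. Gimap8 (-1.16) is followed by Gimap9 (0.18) and Gimap4 (0.23), then by Gimap6 (-0.80) and Gimap7 (-0.55), and then by Gimap1 (-0.03), Gimap5 (0.15) and Gimap3 (0.04) on the log2 scale. The intervals of the adjacent genes Gimap4 (0.11 to 0.34) and Gimap6 (-0.94 to -0.66) lie far apart. The number of Gimap6 reads per Gimap4 read, a ratio that does not depend on the scaling of a library, was 0.614 and 0.612 in wild type and 0.302 and 0.299 in knockout. A permutation test of such a ratio was not run, since with 2 libraries a side the exact two-sided p is at least 0.333.

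The family's total differed less between the genotypes than its most affected members did. The summed level was 308 and 307 CPM in wild type and 298 and 299 CPM in knockout (307.3 ± 0.869 against 298.0 ± 0.726, SD, n = 2 each). Gimap4 took 30.3% of the family's reads in wild type and 36.6% in knockout, and Gimap6 took 18.6% and 11.0%. Gimap1 kept 24.7% and 24.9%. Gimap8 went from 1.67% to 0.769%. Shares of a whole move together, so a lower share of one member raises those of the others. Without Gimap4 the summed level was 214 CPM in wild type and 188.9 in knockout.

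**Figure D3:**
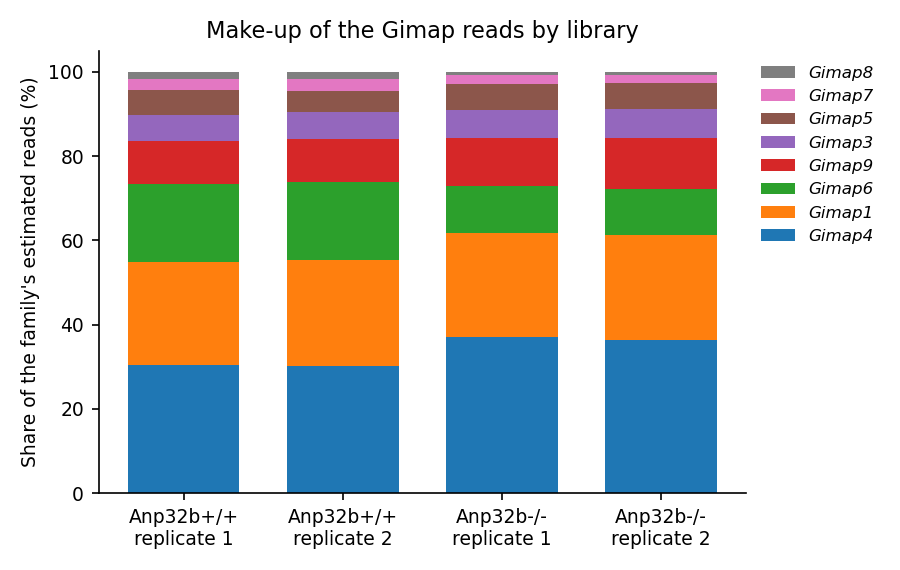
Share of the family's estimated reads taken by each Gimap gene in each of the 4 libraries, in percent, stacked to 100. Gimap4 widens from 30.3% to 36.6% and Gimap6 narrows from 18.6% to 11.0% between wild type and knockout (means), alike in both libraries of a genotype.

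Genes whose products have been linked to GIMAP function were called about as often as all genes tested. The list held 14 genes of the BCL2 family, of the autophagy proteins of the GABARAP and LC3 families, and of a few kinases and partners. Of these 14, 1 rose, 2 fell and 11 were not called (median log2 fold change -0.04), beside 10.9% called higher and 12.6% lower over all genes tested. Bcl2l1, the gene of the anti-apoptotic protein BCL-XL, was at 62.0 and 60.7 CPM in wild type and at 27.6 and 27.5 CPM in knockout (log2 fold change -1.16, SE 0.07, edgeR adjusted p = 1.57e-08). Gabarapl1, an autophagy gene, fell by 0.41 on the log2 scale (SE 0.09, edgeR adjusted p = 0.00431), and Bak1, a death effector, rose by 0.24 (SE 0.06, edgeR adjusted p = 0.00710). The call of Gabarapl1 was lost with DESeq2 (adjusted p = 0.131) and without knockout replicate 1 or 2 (edgeR adjusted p = 0.0572 and 0.0682). That of Bak1 was lost with no filter on low counts and without knockout replicate 2 (edgeR adjusted p = 0.0933 and 0.263). Gabarapl2, the reported partner of Gimap6, did not pass the test (-0.03, SE 0.08, edgeR adjusted p = 0.817), at 35.9 and 38.9 CPM against 34.6 and 38.6 CPM.

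The interferon-inducible GTPases, a separate family of immune GTPases that includes the guanylate-binding proteins (Gbp) and the immunity-related GTPases (Irg), were mostly lower in knockout. Of 15 listed genes, 14 were in the files and were tested: 11 fell, 0 rose and 3 were not called, with a median log2 fold change of -0.52. Over all genes tested, 12.6% were called lower and 10.9% higher, with a median of 0.00206. Iigp1 fell from 4.41 and 4.59 to 0.396 and 0.671 CPM (-3.04, SE 0.29, edgeR adjusted p = 2.24e-06). Gbp2 fell by 0.70 (SE 0.06, edgeR adjusted p = 1.84e-06) and Gbp9 by 0.88 (SE 0.07, edgeR adjusted p = 8.76e-07) on the log2 scale. Whether the lists differ was not tested. Members of the Gbp and Tgtp groups have near-identical copies, so single values there are uncertain.

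**Figure D4:**
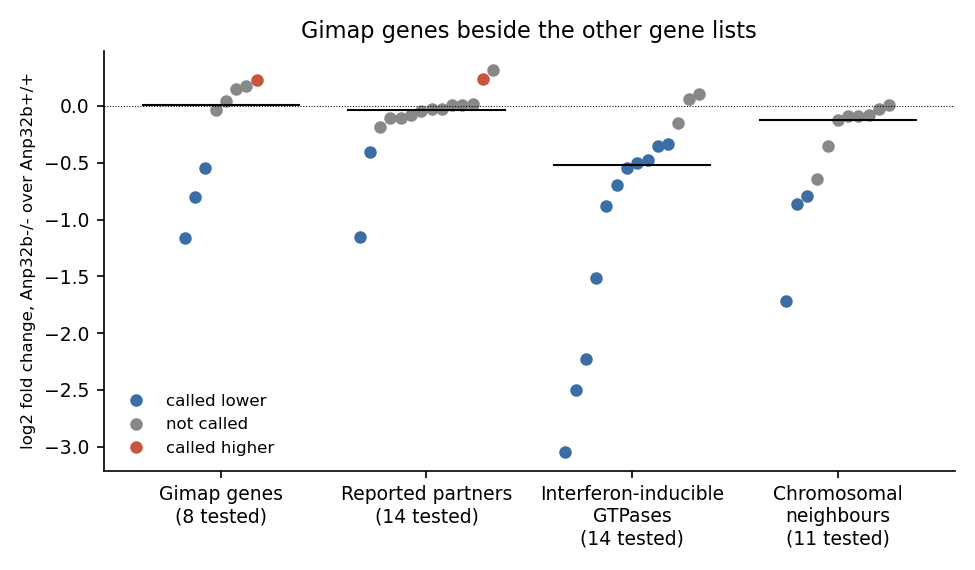
Log2 fold change (knockout over wild type) of every tested gene of the Gimap family and of 3 other lists. Points are genes, coloured by the call, and bars are medians. The Gimap genes and the reported partners centre near 0, and 11 of 14 interferon-inducible GTPases were called lower.

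The genes around the cluster were looked at as well, within 500 kb on either side. RefSeq lists 93 genes there, 20 of them protein-coding. Of the 16 in the files, 11 were tested: 3 fell, 0 rose and 8 were not called (median -0.12), beside 12.6% called lower and 23.6% in all over the genes tested. Tmem176b, the called gene nearest to the cluster, begins beyond Gimap3 at 48833811 and encodes a membrane protein best known from myeloid cells. It was at 16.8 and 14.3 CPM in wild type and at 7.75 and 10.2 CPM in knockout (log2 fold change -0.79, SE 0.13, edgeR adjusted p = 0.000517), a call lost with no filter on low counts (edgeR adjusted p = 0.0646). Gpnmb, a macrophage glycoprotein gene, fell by 1.72 (SE 0.17, edgeR adjusted p = 4.89e-06). Igf2bp3, an RNA-binding protein gene, fell by 0.87 (SE 0.17, edgeR adjusted p = 0.00209), a call lost with DESeq2 (adjusted p = 0.0590) and without knockout replicate 2 (edgeR adjusted p = 0.0667). Zfp775 and Repin1, the tested genes next to the cluster on the Gimap8 side, were not called (edgeR adjusted p = 0.966 and 0.817).

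The cells carried the markers of their label. Of 10 B lineage markers all were tested, and their summed level was 5700 and 5650 CPM in wild type and 5320 and 5350 CPM in knockout. Among them 2 rose and 4 fell, beside 10.9% called higher and 12.6% lower over all genes tested. Ms4a1, which encodes CD20 and marks later B cells, rose by 1.91 (SE 0.07, edgeR adjusted p = 1.09e-10), and Ebf1, an early B cell factor, fell by 0.52 (SE 0.05, edgeR adjusted p = 7.86e-06), in the same libraries in which Gimap6, Gimap7 and Gimap8 were lower and Gimap4 was higher.

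Other cell types, some of which express Gimap genes, were checked by their markers. T cells express many Gimap genes. Cd3d, Cd3e and Cd3g, which encode CD3 subunits of the T cell receptor complex, did not exceed 0.353 CPM in any library. Cd247, which encodes a further chain of that complex, was higher, at 4.09 and 3.90 CPM in wild type and 4.37 and 3.89 CPM in knockout. It was not called (edgeR adjusted p = 0.872). Of 12 T cell markers, 7 were tested, of which 2 rose (Lat and Zap70) and 2 fell (Cd4 and Lck). Cd4 was at 3.76 and 2.87 CPM in wild type and at 1.13 and 1.03 CPM in knockout. Lck was at 16.1 and 18.9 against 13.1 and 13.6 CPM, and Zap70 at 8.33 and 10.1 against 13.1 and 13.5 CPM. The 12 markers summed to 69.9 and 78.2 CPM in wild type and 109 and 105 in knockout. The largest part came from Lat, an adaptor also used by pre-B cells, at 34.99 and 38.4 against 75.9 and 70.4 CPM. The NK cell markers summed to 6.01 and 7.45 CPM in wild type and 1.34 and 2.27 in knockout, with 2 of 4 tested genes called lower. Endothelial cells also express Gimap genes. Their 10 markers summed to 8.18 and 7.77 CPM in wild type and 6.11 and 7.18 in knockout, most of it Egfl7, and Cdh5 and Kdr were at most 0.504 CPM. Monocyte and macrophage markers summed to 89.9 and 85.6 against 37.2 and 35.1 CPM (3 of 7 tested lower), and all 10 neutrophil markers were called lower. The erythroid markers summed to 208 and 228 against 234 and 238 CPM, with none of 8 called, and the megakaryocyte markers to at most 0.976 CPM. The shares over all genes tested, to be set beside the counts of these lists, were 12.6% called lower and 10.9% higher, 23.6% in all. None of these markers was at 0 in all 4 libraries. The part of these cells in the lower Gimap6, Gimap7 and Gimap8 was not tested.

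The genes whose pattern over the 4 libraries lay nearest to the mean centred pattern of the 8 members were Ctnnbip1, Cd93 and Sgo2a. Their Euclidean distances were 0.0134, 0.0183 and 0.0217 in log2 CPM. That mean pattern was 0.122 and 0.116 in wild type and -0.104 and -0.134 in knockout. It blends members that fell, rose or were not called, so no single member follows it. Ctnnbip1, the nearest, was not called (log2 fold change -0.25, SE 0.14, edgeR adjusted p = 0.214). Sgo2a was called (-0.24, SE 0.07, edgeR adjusted p = 0.0186), but lost the call in 4 alternatives. Cd93, a receptor gene of early B cells and other marrow cells, was at 118 and 117 CPM in wild type and at 99.3 and 98.7 CPM in knockout (log2 fold change -0.25, SE 0.05, edgeR adjusted p = 0.00303), a call lost without either knockout library.

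**Figure D5:**
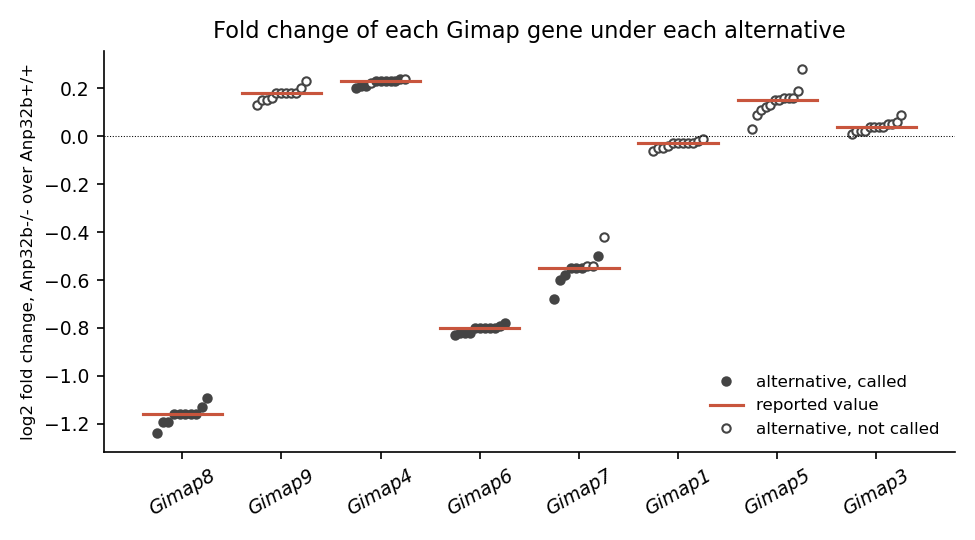
Log2 fold change of each Gimap gene (knockout over wild type) under each alternative way of processing the counts, in chromosome order. Bars are the reported values, filled points are alternatives in which the gene was called and open points those in which it was not. Gimap6 and Gimap8 were called in every alternative in which they were tested (11 and 10), Gimap4 in 9 of 11 and Gimap7 in 7 of 10.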

How the data were processed

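Each file, as deposited by the authors, gives the expected counts (estimated counts of reads, with decimals) of 1 library by gene symbol. The build GRCm38 and the tools DESeq2 1.4.5 and HISAT2 2.0.4 stand in the submitters' processing notes. Counting tool, annotation and strand setting: not given in the sources used here. Of the symbols, 99.6% matched RefSeq on GRCm38.p6. Counts were rounded to whole numbers and tested with edgeR 4.0.16 (quasi-likelihood, TMM, filterByExpr with minimum count 10, R 4.3.3), knockout against wild type, 2 libraries each, with no covariate. 12123 genes were tested, 4490 fell below the filter, and p-values were adjusted over all genes tested. CPM are TMM-scaled. Standard errors and 95% intervals come from the fit. The limit for a count of 0 covers counting error only. The procedure was tested on simulated data. Alternatives were DESeq2 1.42.0, limma-voom (limma 3.58.1), other scalings and filters, the replicate number as a block, and leaving out each library.

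The members and lists were chosen with earlier results of these data known. Named are all members, Anp32b, in each of 3 lists the 3 called genes with the smallest p, the 3 genes most like the family, and genes of other lists only where a member is read beside them. Gabarapl2, Zfp775, Repin1 and the Y-linked genes were added after values were seen.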

Additional observations from a re-analysis of the deposited data

How the results depend on the processing

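None of the 8 Gimap genes changed direction under any alternative run. Gimap6 ranged from -0.83 to -0.78 and Gimap8 from -1.24 to -1.09 on the log2 scale, both called throughout (highest edgeR adjusted p = 0.00463 and 0.0289). Gimap4 ranged from 0.20 to 0.24 and Gimap7 from -0.68 to -0.42. With at least 10 CPM required in 2 libraries, Gimap7 and Gimap8 were not tested, and 1 member was called lower. At a fold change of at least 2, 0 members were higher and 1 was lower, and over all genes 157 were higher and 473 lower. Over all genes, 1323 were called higher and 1533 lower. These counts were 680 and 714 with DESeq2 and 547 and 744 with no filter. Leaving out each library in turn gave 372 to 1676 higher and 579 to 1712 lower genes, with 0 to 1 members higher and 2 to 3 lower. The lowest counts came without knockout replicate 2, where the remaining knockout library is taken to vary as the wild-type pair does.

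The labels link same-numbered libraries by no more than a number, and do not say whether they share a batch. The correlation of their deviations across genes was 0.0349. With the replicate block, 1644 genes were higher and 1779 lower, and the same 4 members were called.

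The family's summed level was 309.6 and 295.5 CPM on unscaled totals and 214 and 188.9 CPM without Gimap4 (wild type and knockout). Depth limits Gimap8 most, at 42 to 103.88 reads per library.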
